A study of Rattus norvegicus with 24 samples.

Results

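The 8 Sham-vehicle rats of the series were described on their own, as the baseline transcriptome of the lumbar dorsal root ganglion (DRG). They were 8 of the 24 rats sequenced and were chosen by their titles alone, as the libraries titled Sham. The animals were female Sprague-Dawley rats, 20 weeks old when the ganglia of lumbar levels 4 to 5 were taken. Their surgery brought the ovaries out of the abdomen without removing them, and they then received saline vehicle in place of TPTD (teriparatide, a fragment of parathyroid hormone). The other 16 libraries, by their titles from ovariectomized rats given vehicle or TPTD, enter no value below. The first library titled OVX (ovariectomized) carries a surgery label of Sham, and it was left out by its title. All 8 rats thus carried an operation and repeated injections, and the study's methods state that they were picked for a heat withdrawal latency near the mean of the sham arm, so the spread given here is that of rats selected in this way.

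A DRG holds the cell bodies of the sensory neurons of a spinal nerve, whose axons run to skin, muscle and viscera and to the spinal cord. Each cell body is wrapped by satellite glia, the axons are ensheathed by myelinating and non-myelinating Schwann cells, and the ganglion is supplied by capillaries, enclosed in connective tissue and populated by resident macrophages. The neurons fall into large myelinated mechanosensory and proprioceptive cells and small nociceptors, which are told apart by peptides, neurotrophin receptors and ion channels. Whole ganglia were homogenized, and fewer cells of a type and less RNA per cell cannot be told apart in these libraries.

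Each rat gave 15573490 to 18804246 estimated counts over 17811 table entries (17236 gene IDs, some of them listed at several places), and all levels below are FPKM, fragments scaled by transcript length and by the mapped fragments of the library. At a transcript of 1 kb, 1 count was worth 0.0482 to 0.0577 FPKM. The pairwise correlation of log2 levels across entries was 0.982 to 0.985 for pairs that included rat 3 and 0.987 to 0.991 for all others. Rat 3 thus stood apart from the other 7 rats, and values that rest on it are given with and without it. Rat 2 stood apart in ribosomal RNA alone, which took 2.70% of its counts against 0.174% to 1.15% in the others.

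The most abundant transcripts were those of the neuronal cytoskeleton. Nefl (chr15:44799378-44803251, plus strand, rn6 as in the deposited table), the light neurofilament subunit, was listed at 4333 to 4817 FPKM with a median of 4437, and rat 1 was apart from the others, which reached 4505. Nefm, the medium subunit, followed at 4211 ± 184 FPKM (mean ± SD, n = 8 here and throughout), and Nefh, the heavy subunit, at 1738 ± 96.2. Sncg, a synuclein of peripheral neurons, had 3598 ± 294 FPKM and Uchl1, a neuronal ubiquitin hydrolase, 2160 ± 107. The tubulins Tuba1b, Tuba1a and Tubb3 were at 2405 ± 143, 2300 ± 159 and 2027 ± 114 FPKM. Apoe (1578 ± 110), a lipid carrier made by satellite glia, was also among the 20 most abundant entries. Transcripts of most cells among them were the ferritin chain Fth1 (3025 ± 314), the chaperones Ppia (2169 ± 143) and Hspa8 (1801 ± 119 for the larger of its entries), the glycolytic enzyme Gapdh, the actin-binding Tmsb4x, the ubiquitin gene Ubb, galectin-1 (Lgals1), the elongation factor Eef1a1 and 18S ribosomal RNA (Rn18s). Rn18s was the only one of the 20 with a mean set by a single rat: it ran from 351 to 5289 FPKM with a median of 1150, and rat 2 held the highest value.

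The order at the top was resolved for the first 4 places only. Neighbours in the order of mean FPKM were compared within rats by an exact two-sided sign-flip test on log2(FPKM + 0.1), with Benjamini-Hochberg adjustment over 82 pairs in 5 sets. Nefl exceeded Nefm in 8 of 8 rats by 0.09 ± 0.03 log2 units (exact p = 0.00781, the smallest the test can give, adjusted p = 0.0246), and the steps from Nefm to Sncg, Sncg to Fth1 and Fth1 to Tuba1b passed in the same way. The other 15 of the 19 neighbouring pairs did not pass: Tuba1b and Tuba1a differed by 0.06 ± 0.11, and Ppia and Uchl1 by 0.00 ± 0.10. Over all 5 sets 31 of the 82 pairs passed.

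The single highest entry took 0.950% to 1.06% of the summed FPKM, the first 10 took 6.37 ± 0.137%, the first 20 took 10.2 ± 0.386% and the first 100 took 23.7 ± 0.533%. The 890 entries with a mean of 100 FPKM or more held 57.0% of the total and the 31 entries with 1000 or more held 13.2%.

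**Figure D1:**
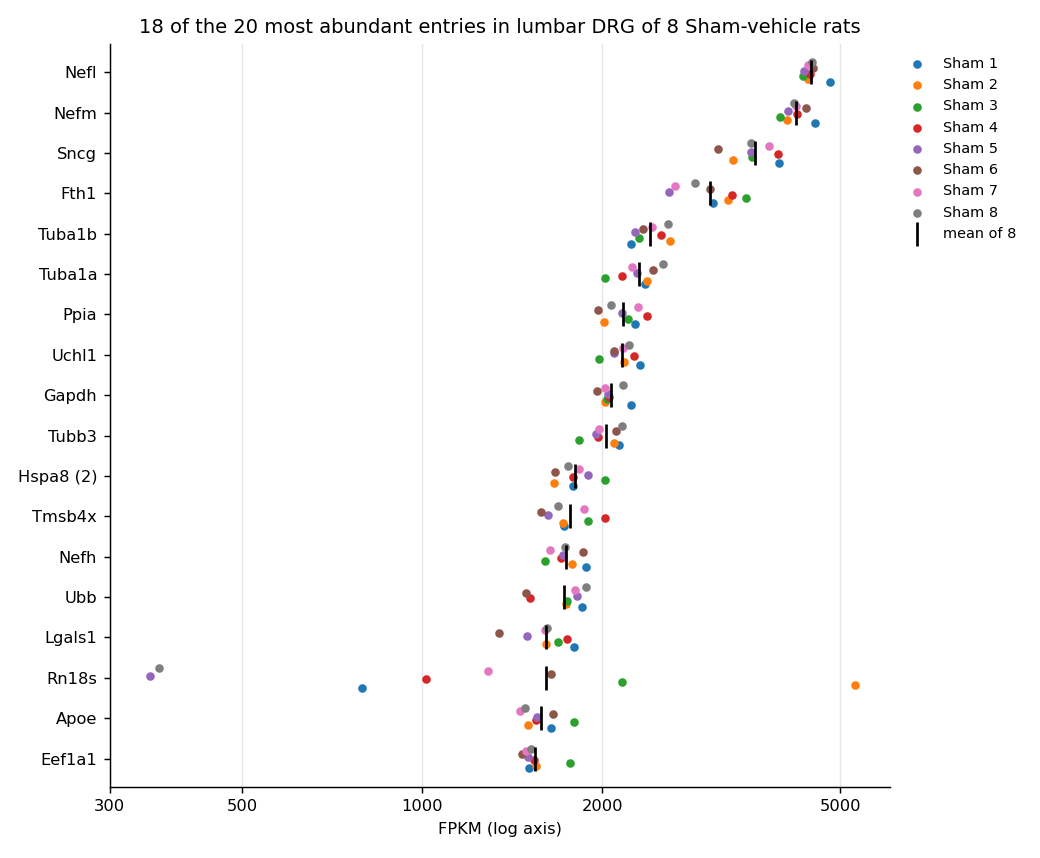
FPKM (log axis) of 18 of the 20 most abundant entries, 1 coloured point per Sham-vehicle rat and a black bar at the mean of the 8. The neurofilament genes Nefl and Nefm lead in every rat but rat 2, where Rn18s is above both, and Rn18s is spread from 351 to 5289 FPKM while the other entries vary little.

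Lists of marker genes placed the cell classes of the ganglion on one scale, the share of a rat's summed FPKM. The pan-neuronal list held 5.87 ± 0.205% over 27 genes, the satellite glia list 1.30 ± 0.111% over 22, the myelinating Schwann cell list 0.910 ± 0.0759% over 20 and the fibroblast and connective sheath list 0.514 ± 0.0435% over 24. Endothelium (0.0431 ± 0.00347%, 24 genes), pericytes and smooth muscle (0.0360 ± 0.00417%, 17 genes) and macrophages (0.101 ± 0.0447%, 24 genes) were lower. Lists differ in length and in how abundant their members are, so these shares rank sets of transcripts and not numbers of cells, and S100b, Cdh19 and Sox10 each stand in more than 1 glial list. The labelled tissue bore its markers: all 27 pan-neuronal genes and all 12 sensory neuron transcription factors found in the table had a mean above 1 FPKM.

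**Figure D2:**
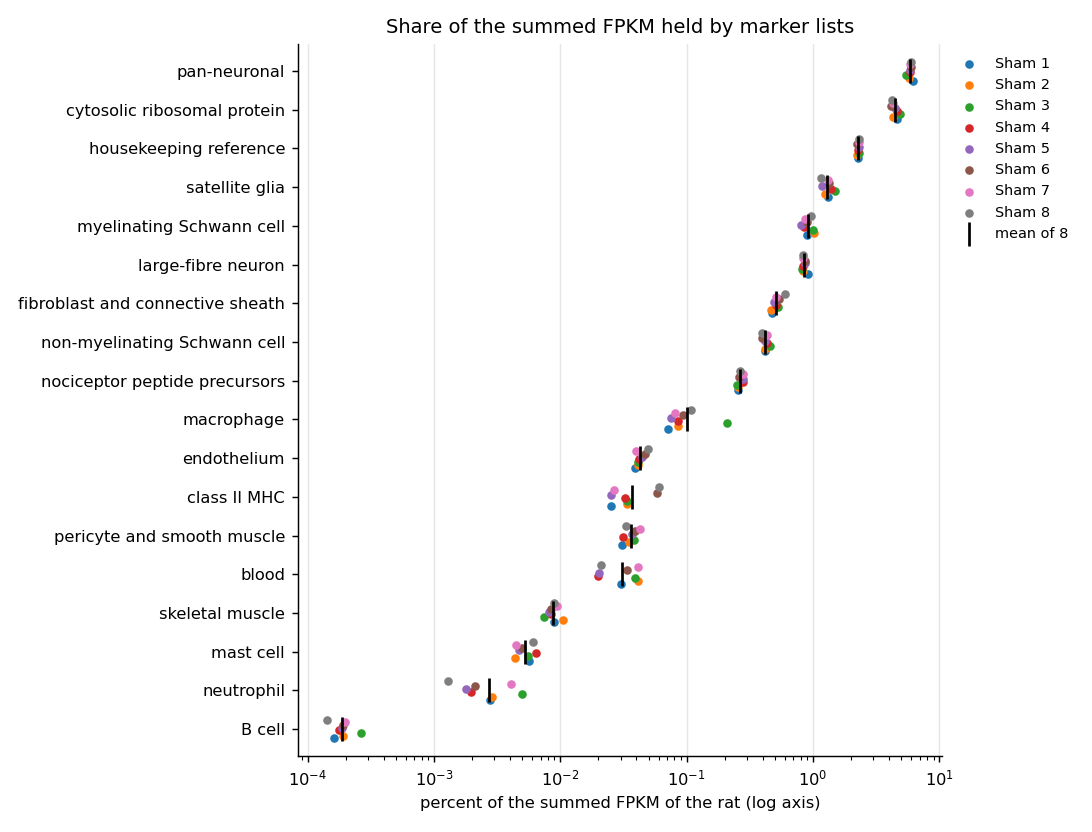
Percent of the summed FPKM (log axis) held by 18 marker lists, 1 coloured point per rat and a black bar at the mean. Neuronal, ribosomal protein and glial lists overlap between rats within narrow bands, and in the macrophage list rat 3 (0.208%) lies apart from the others (0.0711% to 0.109%).

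Of the pan-neuronal list outside the first 20 entries, Stmn2 (1509 ± 70.2 FPKM), a microtubule regulator of axons, Thy1 (1262 ± 62.2), a surface glycoprotein, Prph (852 ± 45.1), the intermediate filament peripherin, and Snap25 (786 ± 56.5), a part of the vesicle fusion machinery, were the highest. The lowest of the list was Ina (22.7 ± 1.77), a neuronal intermediate filament. Transcription factors of the sensory lineage were far lower than the filaments. Etv1, an ETS factor of proprioceptors, had 45.8 ± 3.17 FPKM, Drgx, a homeodomain factor of nociceptors, 40.7 ± 3.67, and Isl1, which marks sensory neurons at large, 35.3 ± 1.71. Runx1 (6.97 ± 0.972) and Runx3 (5.87 ± 0.832), which in mouse direct nociceptor and proprioceptor fates, were lower still.

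Neuropeptide precursors ran from among the abundant transcripts down to single counts. Calca, the precursor of calcitonin gene-related peptide (CGRP) alpha, was listed at 214 to 309 FPKM with a median of 223, and rat 4 lay apart from the others, whose highest value was 239. Scg2, the granin secretogranin II, had 214 ± 27.7 FPKM, and its difference from Calca did not pass (adjusted p = 0.327, exact sign-flip test). Tac1, the precursor of substance P, ranged from 165 to 203 FPKM with a median of 181, and Calcb, the beta form of CGRP, from 120 to 170 with a median of 139. Each of these steps passed, Scg2 above Tac1 by 0.22 ± 0.15 and Tac1 above Calcb by 0.40 ± 0.19 log2 units, in 8 of 8 rats (exact p = 0.00781, adjusted p = 0.0246 for both).

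Below them the granins Chgb (105 ± 10.1 FPKM) and Chga (90.3 ± 7.58), somatostatin (Sst, 95.6 ± 15.5), the bombesin-like peptide Nmb (69.9 ± 7.86) and PACAP (Adcyap1, 24.7 ± 2.12) formed a middle range. Chgb was not separated from Sst, nor Sst from Chga, and Chgb was not tested against Chga. Gal, galanin, had 10.7 ± 2.43 FPKM with its highest value in rat 7, Penk, proenkephalin, ranged from 3.24 to 6.93 with a median of 3.84, and Npy from 0.641 to 3.60 with a median of 1.99. Of the 22 precursors, 15 had a mean of 1 FPKM or more and 5 a mean under 10 counts. The latter were Nppb, the natriuretic peptide of itch neurons in mouse (2 to 16 counts a rat), Cck (2 to 13 counts), Vip, Pdyn and Grp, gastrin-releasing peptide, with 1 count in rat 1 and none in the other 7.

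Sodium channel alpha subunits were the most resolved of the 5 sets: 6 of 7 neighbouring pairs passed (adjusted p = 0.0246 each, exact sign-flip test). Scn7a, an atypical channel that in the nerve is found in glia as well as neurons, was the highest at 247 ± 31.8 FPKM and above Scn10a in 8 of 8 rats. Scn10a, the tetrodotoxin-resistant channel of nociceptors, exceeded Scn11a, its close relative (65.8 ± 10.6), by 0.40 ± 0.11 log2 units. Scn11a and Scn9a (59.1 ± 5.85), the channel whose loss abolishes pain in humans, were the pair that did not pass (adjusted p = 0.265). Scn1a (35.2 ± 2.23) and Scn8a (27.9 ± 4.26), channels of myelinated axons, came next, and Scn3a (2.59 ± 0.443), Scn2a (1.83 ± 0.229) and the muscle channel Scn4a (0.683 ± 0.182) were low.

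**Figure D3:**
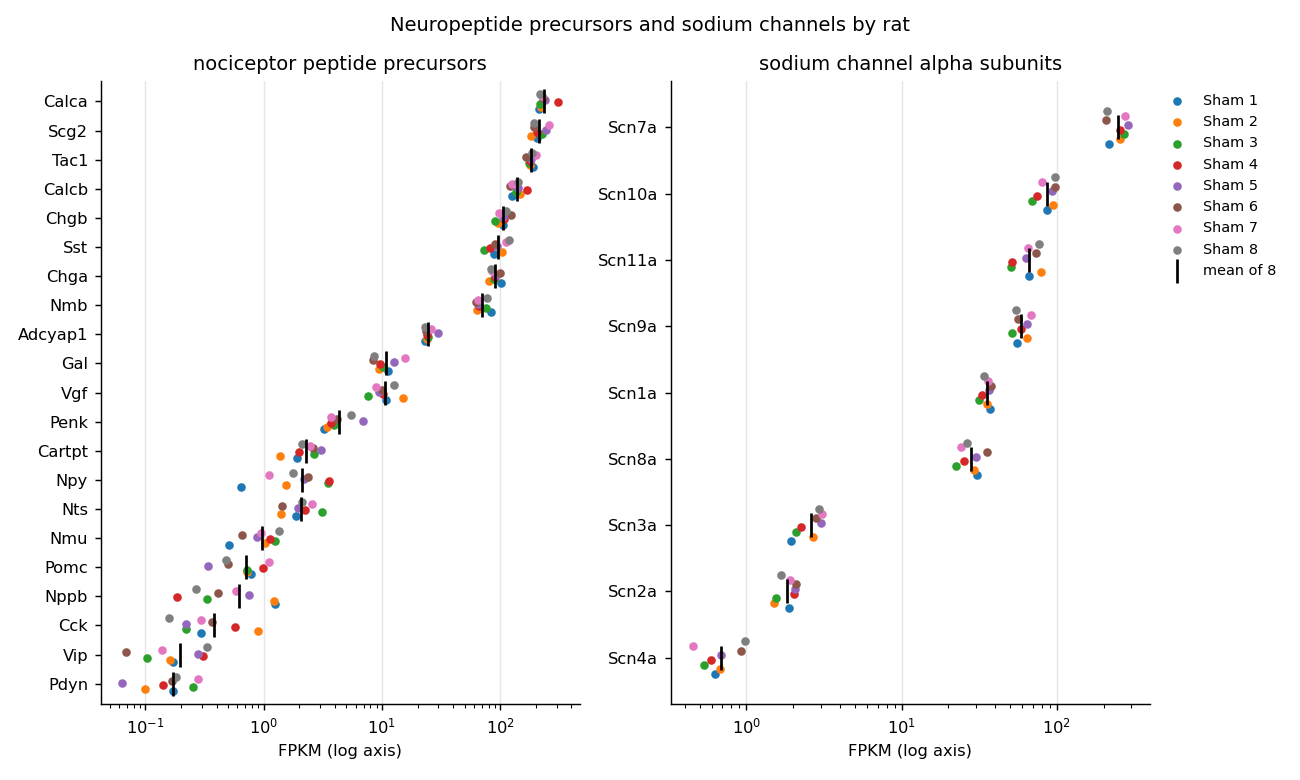
FPKM (log axes) of neuropeptide precursors (left) and sodium channel alpha subunits (right) with a mean of at least 0.1 FPKM (1 channel left out), 1 coloured point per rat and a black bar at the mean. Neighbours such as Scn11a and Scn9a overlap, Calca of rat 4 (309) is to the right of the others, and points scatter widely below 1 FPKM.

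Receptors and channels that define sensory subtypes followed. Ntrk2, the receptor of brain-derived neurotrophic factor, had 36.5 ± 3.49 FPKM and Ntrk3, the receptor of neurotrophin-3, 6.78 ± 1.21. The heat and capsaicin receptor Trpv1 (50.9 ± 7.06), the irritant receptor Trpa1 (31.4 ± 3.62) and the cold receptor Trpm8 (21.8 ± 2.18) kept this order by mean. Non-peptidergic nociceptors were marked by the ATP receptor P2rx3 (120 to 165 FPKM, median 151), the receptor Ret of glial cell line-derived factors (97.1 ± 11.1), the complement regulator Cd55 (222 ± 45.2) and the orphan receptor Mrgprd (20.7 ± 3.68). P2rx3, Cd55 and Scn10a were each lowest in rat 3, at 120, 142 and 68.9 FPKM. The large-fibre list had a median member at 35.8 FPKM, and its highest members were well above that. Spp1, osteopontin, had 824 ± 56.3 FPKM, Ldhb, a lactate dehydrogenase, 405 ± 37.2, Pvalb, the calcium buffer parvalbumin of proprioceptors, 310 ± 43.9, and Slc17a7, a vesicular glutamate transporter, 140 to 168 with a median of 151. Th, the dopamine-synthesis enzyme that marks low-threshold C fibres in mouse, was low, at a mean of 42.9 counts. It ranged from 0.556 to 3.22 FPKM with a median of 0.885 and its highest value in rat 7.

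Satellite glia were represented first by transcripts they share with other glia. Apoe, Cst3 (the protease inhibitor cystatin C), S100b (a calcium-binding protein, 983 ± 110 FPKM) and Dbi (the acyl-CoA binding protein, 593 ± 70.7) led the list, and Fabp7, a fatty acid binding protein more confined to satellite glia, had 126 ± 33.2. Cst3 was among the least even of the abundant genes: rats 5 and 8 were at 986 and 1014 FPKM, the median was 1528 and rat 4 was highest at 1871. Kcnj10, the potassium channel by which satellite glia clear potassium, was even, at 37.9 to 48.0 FPKM with a median of 41.5. Gfap, the filament of activated glia, was low, from 2.64 to 6.04 FPKM in the other 7 rats and 13.4 in rat 3.

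Among the myelin genes, 9 of 19 neighbouring pairs passed (exact sign-flip test). Pmp22 (910 ± 63.8 FPKM), a compact myelin protein whose gain or loss causes human neuropathy, exceeded Mbp (216 to 282, median 252), myelin basic protein, by 1.83 ± 0.08 log2 units in 8 of 8 rats (exact p = 0.00781, adjusted p = 0.0246). Prx, periaxin, had 105 ± 11.6 FPKM. Ngfr, the low-affinity neurotrophin receptor of non-myelinating Schwann cells and some neurons, had 219 ± 15.1. Of the 17 genes of the spinal cord glia list, 9 had a mean of 1 FPKM or more, some of them shared with Schwann cells and satellite glia, such as Mal (76.7 ± 8.34 FPKM) and Gja1 (13.3 ± 0.955). Olig2 and Klk6 had no count in any rat, where 3 counts would be 0.0588 and 0.144 FPKM, and Mobp averaged 0.0193 FPKM.

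Vascular transcripts were far below the neuronal ones. Slc2a1, the glucose transporter of barrier endothelium and of perineurium, had 35.2 ± 3.62 FPKM, Ramp2, a receptor partner of adrenomedullin in vessels, 33.2 ± 2.99, and the tight junction gene Cldn5 18.9 to 29.2 with a median of 22.7. Ramp2 and Cldn5 were both highest in rat 8. Emcn (15.3 ± 2.10), Pecam1 (5.66 ± 1.26) and Vwf (2.15 ± 0.518), surface and clotting proteins of endothelium, were lower, and 23 of the 24 endothelial genes had a mean of 1 FPKM or more. Rgs5, a pericyte regulator of G protein signalling, ranged from 42.8 to 86.9 FPKM with a median of 53.6, and rat 7 was apart from the rest. The smooth muscle genes Tagln and Acta2 had 26.8 ± 4.22 and 17.3 ± 1.80. Haemoglobin marked residual blood: Hba2 ranged from 33.3 to 81.4 FPKM with a median of 64.7 and Hbb from 19.6 to 40.2 with a median of 30.3, both lower in rats 4, 5 and 8 than in the other 5 rats.

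Connective tissue was led by Sparc (679 ± 20.6 FPKM), a matrix glycoprotein also made by glia and endothelium, followed by the proteoglycan Dcn (483 ± 89.0), the meningeal prostaglandin synthase Ptgds (248 to 573, median 359), the calcification inhibitor Mgp (207 ± 38.4) and the growth factor carrier Igfbp6 (92.6 ± 19.9). Sparc had a coefficient of variation of 3.03% and Ptgds by more than 2-fold between the lowest and highest rat, with rats 7 and 8 at the top. Col1a1, the main fibrillar collagen, had 39.8 ± 8.17 FPKM.

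Macrophage genes gave the clearest immune signal. Lyz2, lysozyme, ranged from 143 to 530 FPKM with a median of 174, the protease gene Ctss from 19.6 to 68.3 with a median of 27.2, and C1qa, a subunit of complement C1q, from 14.4 to 43.3 with a median of 20.8. Rat 3 was the highest in all 3 of these genes. Csf1r, the growth factor receptor on which macrophages depend, was more even, at 14.5 ± 2.44 FPKM, and Cd163, a scavenger receptor of tissue-resident macrophages, was highest in rat 8 (5.73) and not in rat 3 (3.84). Class II antigen presentation was also detected. Cd74, the invariant chain, had 47.9 to 132 FPKM with a median of 62.9, and RT1-Da, a class II alpha chain, 29.6 to 67.6 with a median of 37.9. Rats 6 and 8 lay above the other 6 rats in both. Interferon-inducible genes were led by Ifi27 (295 ± 33.2), and 34 of 38 had a mean of 1 FPKM or more.

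Most lymphocyte and granulocyte genes were low. In the T and NK cell list 13 of 18 genes averaged under 10 counts, and Thy1, a neuronal gene in this tissue, held nearly all of its FPKM. Cd4, a co-receptor of helper T cells that rat macrophages also carry, stood higher, at 14.2 ± 7.11 FPKM with its highest value, 30.2, in rat 3. The T cell receptor chain Cd3e had 0 to 5 counts a rat and the granule protease Gzma 0 to 2. All 8 B cell genes were under 1 FPKM and 7 of them under 10 counts. The mast cell list was led by Kit (9.95 ± 1.11), a receptor that some sensory neurons also carry, and 6 of its 15 genes averaged under 10 counts. Mcpt1 and Mcpt2, mast cell proteases of mucosa, had no count in any rat. The neutrophil gene S100a9 ranged from 0.343 to 9.26 FPKM with a median of 2.25 and its highest value in rat 3, while the neutrophil enzyme Mpo had 0 or 1 count a rat.

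Receptors that the study's treatments act on were present at low to moderate levels. Pth1r, the receptor of parathyroid hormone, ranged from 6.15 FPKM in rat 5 to 10.8 in rat 1 with a median of 7.98, and it lies at chr8:118988208-119007807 on the minus strand of rn6. Pth2r, its relative, averaged 0.0497 FPKM with 0 to 4 counts a rat, and Pth, the hormone itself, had no count in any rat, where 3 counts would be 0.222 FPKM. The oestrogen receptor Esr1 had 0.755 ± 0.233 FPKM, Esr2 1 to 10 counts a rat, and the calcitonin receptor Calcr 0 to 4 counts. Of the CGRP receptor parts, Calcrl had 5.04 ± 1.14 FPKM and its partner Ramp1 4.98 ± 1.15.

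At the limit of counting, 2534 of the 17811 entries had no count in any rat, 1965 had counts in some rats only and 13312 in all 8. Entries with a mean above 0 but under 10 counts numbered 2774 and held 0.0623% of the summed FPKM. Chemoreceptors of the nose made up much of the silent part: 1092 of 1351 olfactory receptor entries had no count in any rat, and 2 of them, Olr63 (1.63 ± 0.290 FPKM) and Olr34 (1.57 ± 0.381), had a mean of 1 FPKM or more. Among vomeronasal receptors Vom2r52 was even and above the rest, at 3.96 ± 0.251 FPKM (lowest 3.52, highest 4.26). Of 479 microRNA gene entries 458 were at 0, in libraries made from polyadenylated RNA. Markers of neighbouring tissues were mixed. Skeletal muscle genes held 0.00878 ± 0.000923% of the FPKM, with 6 of 27 at a mean of 1 FPKM or more, Myl2 at 0 and the muscle creatine kinase Ckm at 0.684 ± 0.291. Of 5 motor neuron genes 2 reached 1 FPKM, the transcription factor Isl2, which sensory neurons also express (33.6 to 48.3), and the choline transporter Slc5a7 (1.82 ± 0.170), while Chat had 0 to 3 counts a rat. Of 13 adipocyte genes 5 reached 1 FPKM, led by the desaturase Scd1 (76.9 ± 5.17), and the fat hormone Adipoq had 0 or 1 count a rat. Of 16 epithelial genes 5 reached it, led by the adhesion molecule Cdh1 (68.5 ± 5.19), with the keratin Krt19 at 2.95 ± 1.18 and Krt17 at 0. Of 3 Y-linked genes in the table Eif2s3y and Sry had no count, and Ddx3y was listed at 1.39 ± 0.202 FPKM, a value that may include reads of its near-identical X copy.

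The spread between rats was described by the biological coefficient of variation (BCV), the relative spread that edgeR's dispersion leaves after counting error. Over 12029 entries with enough counts the median BCV was 0.0906, and 719 entries (5.98%) had a BCV of 0.2 or more, called wide here. The share called wide fell with depth, from 24.3% of entries under 100 counts to 3.43% of those from 100 to 1000 counts and 0.686% of those from 1000 to 10000. The estimates are drawn toward the trend over entries, and on simulated counts they erred to both sides of this threshold, so the class is approximate. Without rat 3 the wide class numbered 413 of 12063 entries (3.42%).

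None of the 27 pan-neuronal genes was wide (median BCV 0.0791), and none of 80 ribosomal protein genes (0.0798) or 14 housekeeping genes (0.0748). These counts of 0 are near the share of all entries at such depth, 0.686% from 1000 to 10000 counts and 1.44% above that. Some neuronal lists held more wide genes: 3 of 8 for low-threshold C fibres, 2 of 10 sodium channels, 2 of 16 non-peptidergic genes and 3 of 12 axon injury genes. Others did not, with 1 of 18 large-fibre genes, 1 of 12 peptidergic genes, 1 of 14 peptide precursors and 0 of 12 sensory neuron transcription factors. Leaving out rat 3 gave 3 of 8 for low-threshold C fibres, 1 of 10 sodium channels, 1 of 16 non-peptidergic genes and 2 of 12 axon injury genes. The large-fibre, peptidergic, precursor and transcription factor lists kept their counts. All these lists are short. The low-threshold list has a median of 142 counts and the sodium channel list one of 4540 counts. Of all entries, 24.3% under 100 counts, 3.43% from 100 to 1000 counts and 0.686% from 1000 to 10000 counts were wide. Some of the lowest BCVs above 10 FPKM, 0.0515 to 0.0529, were those of Kansl2, Il13ra1 and Pik3cb. Kansl2, a chromatin complex subunit, was at 23.5 to 24.8 FPKM in 1 of its 2 entries (median 24.2). Il13ra1, a cytokine receptor chain, had 17.3 to 18.1 (median 17.8) and Pik3cb, a lipid kinase, 11.3 ± 0.263. Their coefficients of variation, 1.89%, 1.59% and 2.33%, were below counting error at their depth. Their BCVs therefore rest on the pull toward the trend and do not rank these genes. Satellite glia (median BCV 0.101, 1 of 22 wide), myelinating Schwann cells (0.106, 1 of 20) and endothelium (0.114, 1 of 24) were close to the median of all entries. Macrophage genes (0.236, 16 of 24 wide), class II genes (0.233, 5 of 7), the clock list (0.198, 7 of 15) and the 7 genes of the blood list with enough counts (0.278, 6 wide) stood above the 5.98% of all entries and above the 3.43% of entries with like counts. The interferon response list (0.186, 14 of 35) and the fibroblast and connective sheath list (0.153, 8 of 24) were above 5.98% too. The fibroblast list has a median of 1240 counts, a depth at which 0.686% of entries were wide. Without rat 3 the macrophage list held 2 of 24 wide genes at a median BCV of 0.145, while class II (5 of 7), clock (7 of 15) and blood (6 of 7) kept their counts. The interferon response list then held 12 of 35 wide genes and the fibroblast list 7 of 24.

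**Figure D4:**
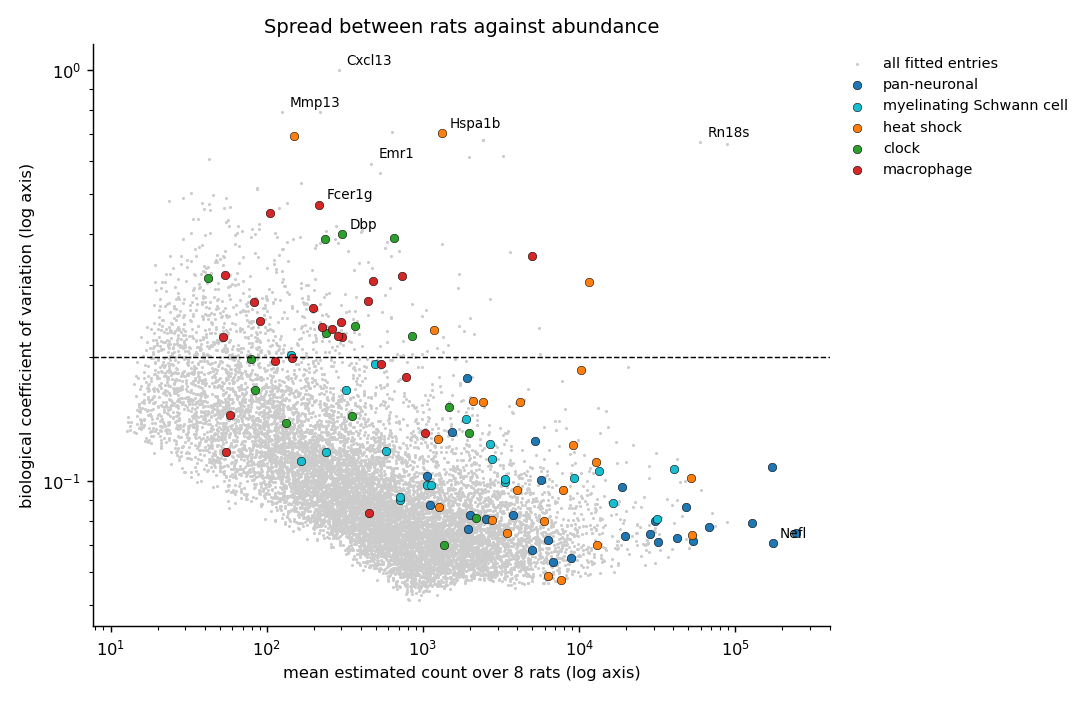
Biological coefficient of variation (log axis) against the mean estimated count (log axis) for 12029 entries in grey, with genes of 5 lists in colour and a dashed line at 0.2. All 27 pan-neuronal genes and 19 of 20 myelin genes lie below the line, and most macrophage genes and part of the clock and heat shock genes lie above the line.

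The widest single genes were mostly of 2 kinds, genes high in 1 rat and genes scattered over all. Cxcl13, a chemokine for B cells, was at 80.5 FPKM in rat 3 and at 2.25 to 8.27 in the other 7 (BCV 0.997 with rat 3 and 0.360 without), and C3, the central complement component, at 10.5 against 0.575 to 1.55. Mmp13, a collagenase, ranged from 0.406 to 7.73 FPKM with a median of 0.942 and was high in rats 2, 5 and 7 (BCV 0.791, and 0.753 without rat 3). Casr, the calcium-sensing receptor, ranged from 1.95 to 14.5 with a median of 5.59 and was highest in rats 2 and 8. Fam111a, a replication-linked protease, ranged from 0.489 FPKM in rat 5 to 29.1 in rat 3 with a median of 9.62, and it kept a BCV of 0.602 without rat 3.

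Rat 3 had 112 of 11324 entries (0.989%) at 2-fold or more above the median of the other 7 rats, and the other rats had 6 (0.053%) to 30 (0.265%), with 0.203% in rat 2, 0.256% in rat 4, 0.115% in rat 5, 0.132% in rat 6 and 0.159% in rat 7. Of the 24 macrophage genes, 9 were among them and 22 lay above the median of the others. The median ratio of rat 3 to the median of the other rats was 1.83 over these genes and 1.01 over all entries. Fcer1g, an Fc receptor chain, was at 55.8 FPKM against 10.6 to 14.4, Itgam, an integrin of monocytes and neutrophils, at 4.59 against 0.934 to 1.58, and Emr1, an adhesion receptor of macrophages, at 28.6 against 3.88 to 5.82. The same rat had the lowest pan-neuronal share, 5.43% against 5.80% to 6.15%, and Atf3, an injury-induced transcription factor of sensory neurons, at 11.3 FPKM against 2.79 to 5.69. Of the 11 axon injury genes tested, Atf3 was the only 1 at 2-fold or more above the other rats. The median ratio of those 11 genes was 1.14 in rat 3. The pan-neuronal and macrophage levels are set against each other over all rats in the last paragraph, and the other pairings were not tested.

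Heat shock genes were also high in rat 3. Of 22 members, 18 had their highest value there (beside 2605 of 12029 entries in all), 21 lay above the median of the other rats and 4 were 2-fold or more above it, beside 0.989% of all entries. The median ratio to the other rats was 1.35 over the list and 1.01 over all entries. Hspa1b, the inducible heat shock protein of the cytosol, was at 50.5 FPKM against 4.11 to 9.92, and its copy Hspa1a, which could share reads with it, at 8.16 against 0.676 to 1.71. The co-chaperone Dnajb1 was at 53.1 against 21.8 to 27.6, Hsph1, a nucleotide exchange factor of the same chaperones, at 191 against 127 to 148, and Chordc1, a partner of the Hsp90 proteins, at 74.9 against 50.2 or less. Hspa1b, Hspa1a and Dnajb1 were next highest in rat 5 and then in rat 8. Chaperones of the endoplasmic reticulum had the same order. Hspa5, the main chaperone of that compartment, was at 450 FPKM in rat 3, 324 in rat 5, 251 in rat 8 and 154 to 201 in the rest, and Hsp90b1, Creld2, Sdf2l1 and the collagen chaperone Serpinh1 had the same 3 rats at the top in the same order. Creld2, Sdf2l1 and Serpinh1 are in no list and were singled out after their values were seen.

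**Figure D5:**
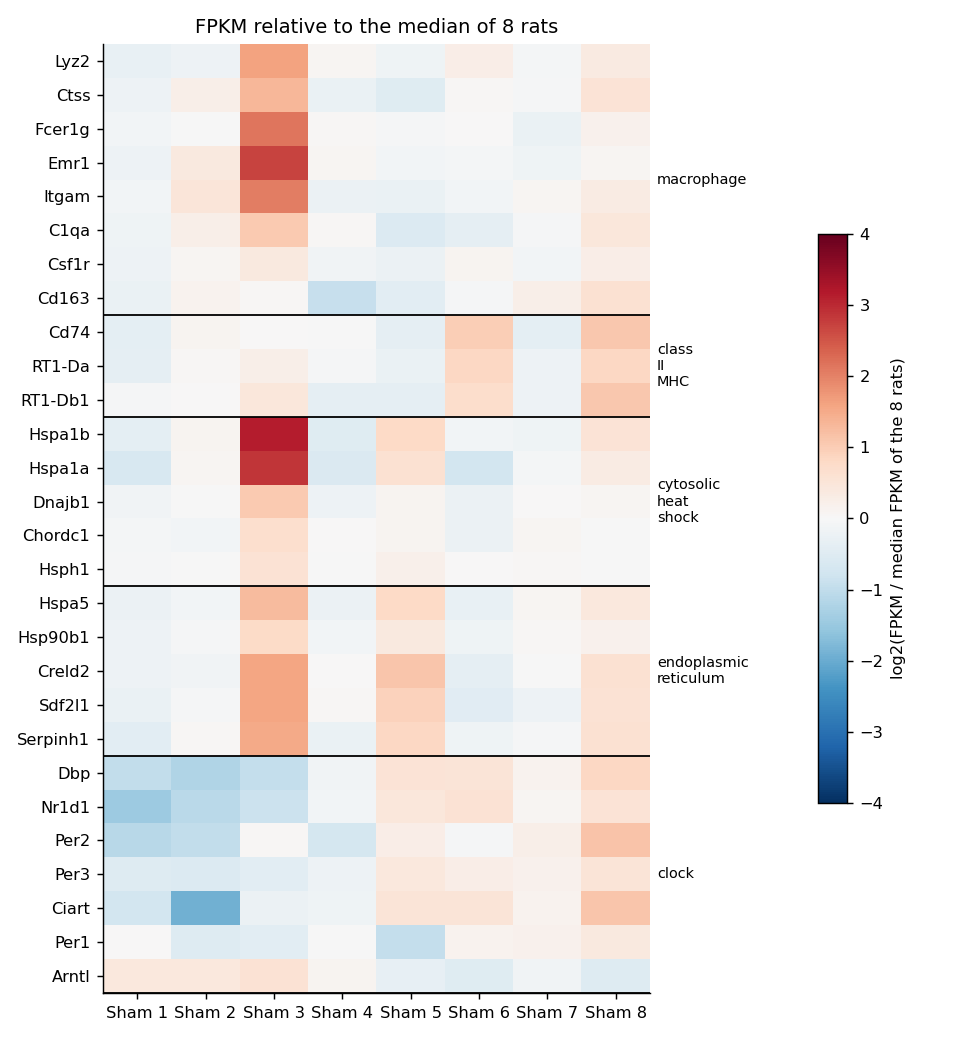
Colour map of log2(FPKM divided by the median of the 8 rats) for 28 genes in 5 sets (rows) and 8 rats (columns), red above and blue below the median. Rat 3 is red in the macrophage genes other than Cd163 and in the heat shock and endoplasmic reticulum sets, rats 6 and 8 are red in class II, and the clock genes other than Per1 and Arntl are mostly blue in rats 1 to 3 and red in rats 5 to 8.

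Class II and interferon genes were high in other rats. All 7 class II genes tested lay above the median of the other rats in rat 8, 3 of them by 2-fold or more (0.265% of all entries in that rat). Their median ratio to the other rats was 1.83 in rat 8, beside 1.02 over all entries. In rat 4, 10 of 34 interferon-inducible genes were 2-fold or more above the others (0.256% of all entries in that rat) and 31 lay above their median. The median ratio of the 34 genes was 1.32 in rat 4, beside 1.01 over all entries. Isg15, a ubiquitin-like protein induced by interferon, was at 8.79 FPKM in rat 4 against 2.25 to 4.70.

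Several clock genes divided the rats alike. Dbp, an output factor of the circadian clock, was at 4.09 to 4.87 FPKM in rats 1 to 3 and at 8.66 to 16.9 in rats 4 to 8, and Nr1d1, a repressor of the clock, at 5.13 to 7.65 and 13.1 to 20.8 in the same rats. Per3, a period gene, was at 2.46 to 2.69 and 3.10 to 5.06, and Arntl, the activator that Nr1d1 represses, had the opposite order, at 8.17 to 9.22 in rats 1 to 3 and at 4.26 to 6.68 in the rest. None of these ranges overlapped between the rats named. The division, and the genes shown for it, were read from these values, so it carries no test. These genes belong to a list of 16 clock genes. Neither the members of the list nor the share of all entries that divide the rats this way were counted. Over the 15 clock genes tested, the median ratio to the other rats was 0.781, 0.780 and 0.827 in rats 1 to 3. It was 0.868 in rat 4 and 1.08, 1.15, 1.14 and 1.32 in rats 5 to 8. Per1 (8.46 to 12.2 against 6.18 to 15.7) and Per2 (0.978 to 2.18 against 1.29 to 4.62) did not follow the division. The labels give no batch and no time of tissue collection.

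Promoter sequences are shown for some heat shock, endoplasmic reticulum and clock genes whose promoters hold a known response element. The element can thus be seen beside the values above. Genes of these sets without a match are not shown. The sequences are those of RefSeq (GRCr8), from 250 bases before to 50 after the annotated start, and 11575 of the 17236 gene IDs matched a promoter by symbol. They carry GRCr8 positions, which are not those of the rn6 table. A heat shock element was searched as the blocks GAA, TTC and GAA with 2 bases of any kind between blocks, and an endoplasmic reticulum stress element as CCAAT, 9 bases of any kind and CCACG. An E-box was searched as CACGTG, a D-box as TTATGTAA and a ROR element as AA, 1 base of any kind and TAGGTCA, all on both strands. Capitals mark the element named for each group.

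Heat shock element, in 0.798% of 33469 promoters and in 6 of 19 heat shock genes with a promoter (Hspa8, Hsph1, Dnaja1, Hspd1, Hspe1 and Chordc1). Hspa1b, Hspa1a and Dnajb1 had no match. In rat 3 these genes without a match were at 9.52, 7.74 and 2.06 times the median of the other rats. Chordc1 and Hsph1, shown here, were at 1.63 and 1.49 times that median. Serpinh1 is in no list and is not among the 6. Hsph1 is at chr12:10427118-10427417 (plus strand), Chordc1 at chr8:23650571-23650870 (plus), where 3 overlapping matches form the run of capitals, and Serpinh1 at chr1:163062927-163063226 (minus).
Hsph1: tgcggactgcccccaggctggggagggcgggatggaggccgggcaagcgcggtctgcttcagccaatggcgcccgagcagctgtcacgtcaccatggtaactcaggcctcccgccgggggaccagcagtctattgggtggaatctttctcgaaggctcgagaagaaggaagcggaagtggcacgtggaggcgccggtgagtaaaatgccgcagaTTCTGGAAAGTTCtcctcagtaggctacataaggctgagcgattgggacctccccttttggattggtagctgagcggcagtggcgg
Chordc1: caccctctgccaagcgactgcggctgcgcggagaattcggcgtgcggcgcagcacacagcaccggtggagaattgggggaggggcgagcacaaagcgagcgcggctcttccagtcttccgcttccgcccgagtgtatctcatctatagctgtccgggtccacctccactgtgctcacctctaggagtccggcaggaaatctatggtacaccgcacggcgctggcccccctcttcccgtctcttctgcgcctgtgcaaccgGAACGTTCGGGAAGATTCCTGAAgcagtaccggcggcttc
Serpinh1: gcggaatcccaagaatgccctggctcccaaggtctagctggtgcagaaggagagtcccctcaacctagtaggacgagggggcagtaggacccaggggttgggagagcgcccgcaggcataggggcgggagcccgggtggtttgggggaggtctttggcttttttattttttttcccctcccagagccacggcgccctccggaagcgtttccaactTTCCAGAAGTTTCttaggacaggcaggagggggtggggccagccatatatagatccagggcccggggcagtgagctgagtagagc

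Endoplasmic reticulum stress element, in 0.0657% of promoters and in 2 of the 19. Hspa5 is at chr3:38452766-38453065 (plus), Hsp90b1 at chr7:23012244-23012543 (minus), with 2 matches on opposite strands, and Creld2 at chr7:121789134-121789433 (plus). All 3 were highest in rats 3, 5 and 8, in that order.
Hspa5: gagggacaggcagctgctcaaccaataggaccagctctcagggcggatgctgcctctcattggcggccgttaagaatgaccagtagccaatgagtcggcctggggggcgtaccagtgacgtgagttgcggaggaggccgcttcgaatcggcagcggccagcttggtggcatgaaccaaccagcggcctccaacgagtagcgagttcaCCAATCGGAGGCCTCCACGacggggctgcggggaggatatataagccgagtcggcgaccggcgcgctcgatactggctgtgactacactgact
Hsp90b1: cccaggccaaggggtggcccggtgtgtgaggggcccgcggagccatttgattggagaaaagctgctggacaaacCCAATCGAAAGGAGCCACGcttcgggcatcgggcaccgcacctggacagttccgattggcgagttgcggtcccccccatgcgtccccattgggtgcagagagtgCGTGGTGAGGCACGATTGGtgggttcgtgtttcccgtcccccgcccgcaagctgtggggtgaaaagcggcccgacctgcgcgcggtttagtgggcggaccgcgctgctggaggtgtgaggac
Creld2: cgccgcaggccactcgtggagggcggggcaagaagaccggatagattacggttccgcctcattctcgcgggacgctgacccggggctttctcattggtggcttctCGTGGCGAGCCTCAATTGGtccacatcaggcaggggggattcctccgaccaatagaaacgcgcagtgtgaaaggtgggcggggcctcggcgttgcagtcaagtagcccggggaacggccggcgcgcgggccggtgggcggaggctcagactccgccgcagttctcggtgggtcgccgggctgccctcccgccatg

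Clock elements, an E-box for Ciart, a repressor of the clock, a D-box for Per2 and a ROR element for Arntl, which RefSeq names Bmal1. E-boxes were in 6.42% of promoters and in 4 of 15 clock genes with a promoter, D-boxes in 0.893% and 1 of 15, and ROR elements in 0.245% and 1 of 15. Ciart is at chr2:186112197-186112496 (minus), with 3 matches, Per2 at chr9:99496944-99497243 (minus) and Arntl at chr1:176766078-176766377 (plus). Ciart and Per2 were highest in rat 8 (2.79 and 4.62 FPKM) and Arntl was lowest there. Per2 did not follow the division of the rats described above. Dbp and Per3, which did, had no match to any of these clock elements.
Ciart: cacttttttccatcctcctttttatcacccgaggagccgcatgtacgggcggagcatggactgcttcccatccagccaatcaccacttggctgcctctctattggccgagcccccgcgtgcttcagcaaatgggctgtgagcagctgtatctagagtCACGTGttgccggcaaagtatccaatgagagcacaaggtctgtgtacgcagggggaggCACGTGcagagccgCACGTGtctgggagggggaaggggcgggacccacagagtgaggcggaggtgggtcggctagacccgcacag
Per2: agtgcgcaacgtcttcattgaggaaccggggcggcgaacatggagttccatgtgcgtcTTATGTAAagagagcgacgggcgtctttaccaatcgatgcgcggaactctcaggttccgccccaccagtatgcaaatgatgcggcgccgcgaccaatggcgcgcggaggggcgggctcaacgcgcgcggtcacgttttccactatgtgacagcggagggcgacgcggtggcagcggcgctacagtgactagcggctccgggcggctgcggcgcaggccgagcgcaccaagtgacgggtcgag
Arntl: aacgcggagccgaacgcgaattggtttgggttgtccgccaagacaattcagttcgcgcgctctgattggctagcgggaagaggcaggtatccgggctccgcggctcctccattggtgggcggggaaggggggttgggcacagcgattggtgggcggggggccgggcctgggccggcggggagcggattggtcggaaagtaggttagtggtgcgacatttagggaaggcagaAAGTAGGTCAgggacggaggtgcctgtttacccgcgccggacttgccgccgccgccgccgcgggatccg

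Only 250 bases before and 50 after the annotated start were searched, so this window set how near the matches lie. Counted from 0 at that start, the element began at -36 in Hsph1, -35 in Serpinh1, -43 in Hspa5 and -19 in Arntl. It began at 10 for the first match of Chordc1, at -145 in Creld2 and at -192 in Per2. Hsp90b1 had matches at -176 and -72, and Ciart at -93, -35 and -21. Hsph1 also held an E-box, left in lower case, which does not overlap the capitals. A match of letters is not a measured site, and nothing was measured here on binding.

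Levels of cell class lists were last set against each other over the 8 rats, in 13 relations with exact permutation tests over all 40320 pairings. No relation passed after Benjamini-Hochberg adjustment (smallest adjusted p = 0.123 for Pearson's r and 0.139 for Spearman's rho), and 1 had an unadjusted p under 0.05. That was the relation of the fibroblast list with the pericyte and smooth muscle list, with r = 0.85 (exact permutation p = 0.00942) and rho = 0.86 (exact permutation p = 0.0107), and r was 0.95 without the 2 rats farthest from the median. The pan-neuronal level was related to the macrophage level at r = -0.73 (exact permutation p = 0.0655, adjusted p = 0.284), but r was 0.54 without rats 1 and 3, so that relation rests on those 2 rats.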

How the data were processed

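DRG transcriptomes of 24 rats were sequenced, and the 8 titled Sham were used. The columns of the other 16 rats entered no value. According to the labels and the study's methods, the authors prepared strand-specific mRNA libraries, read both ends of each fragment and aligned the reads to rn6 (TopHat2 2.0.14 and bcl2fastq 1.8.4 in the submitters' processing notes). They deposited estimated counts per entry (86.6% of the sham values are whole within 0.001) and FPKM values, which the authors normalized to transcript length and mapped fragments. Some withheld genes are not reported here, and mitochondrially encoded genes were not analysed here.

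FPKM were averaged as deposited, and entries of 1 gene ID were summed for lists. Estimated counts were rounded for edgeR 4.0.16 (R 4.3.3), with TMM factors, filterByExpr and an intercept-only fit, which was tested on simulated data. Exact sign-flip and permutation tests were computed in Python 3.11.15 with numpy 2.4.6. Counts, 15573490 to 18804246 a rat, limit the precision, and floors of 3 counts cover counting error only. Rats are separate animals. Named genes were taken from the 20 most abundant entries, the up to 5 highest, the widest and the silent members of 38 lists and 2 lists made by gene name, members under 10 counts, the 15 widest and 10 steadiest genes, and Calca, Calcb, Tac1 and Pth1r. Other genes named were chosen after their values were seen. The members and lists were chosen with earlier results of these data known. Alternatives were scaling (with DESeq2 1.42.0), filters, pseudocounts, counts in place of FPKM and leaving out rats.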

Additional observations from a re-analysis of the deposited data

Results flagged for a closer look

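In groups of 8 values, chance places about 1 in 20 with a rat this far from the others. Many of the genes examined were named for a wide spread or a high value in rat 3, so the counts that follow cannot be read against that rate. Of 144 genes and 40 lists examined, 27 genes and 5 lists had a rat whose gap to its nearest neighbour exceeded the 95% critical share of the range, and in 23 of these 32 it was rat 3.

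In rat 3 the macrophage genes Lyz2 (530 FPKM), Ctss (68.3), Fcer1g (55.8), Aif1 (30.9), Itgam (4.59) and Emr1 (28.6) were high, as were Cxcl13 (80.5) and C3 (10.5). The heat shock genes Hspa1b (50.5), Hspa1a (8.16), Hsph1 (191), Chordc1 (74.9) and Dnajb1 (53.1) were high in the same rat, and so were the glial gene Gfap (13.4), the injury gene Atf3 (11.3), the elongation factor Eef1a1 (1769) and Fam111a (29.1). P2rx3, the ATP receptor of nociceptors, was low there (120). Among lists, rat 3 was high in the macrophage share (0.208%), the spinal cord glia share (0.0948%), the cell cycle share (0.0150%) and the B cell share (0.000264%, under 10 counts for most genes), and low in the T and NK cell share (0.259%), which is nearly all Thy1.

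The remaining 9 were spread over rats. Nefl was high in rat 1 (4817 FPKM), Rn18s in rat 2 (5289), Calca (309) and Isg15 (8.79) in rat 4, Adcyap1 in rat 5 (29.5), Rgs5 in rat 7 (86.9), and Ramp2 (39.7), Cldn5 (29.2) and Per2 (4.62) in rat 8.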

How the results depend on the processing

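Medians, means of 4 rats and means without 1 rat cannot differ from the mean of 8 by 1 SD, so they say little of stability. Rat 3 set several means: without it Cxcl13 fell from 13.8 to 4.25 FPKM, C3 from 2.23 to 1.05, Hspa1b from 11.7 to 6.19 and Emr1 from 7.51 to 4.49. Counts in place of FPKM, which favour long transcripts, moved 36 of 40 list shares, most for blood (0.0308% to 0.00866%), sodium channels (0.118% to 0.403%), ribosomal proteins (4.44% to 1.46%) and the respiratory chain (2.87% to 1.27%), and among cell classes pan-neuronal to 6.50%, satellite glia to 0.898%, myelinating Schwann cell to 0.758%, endothelium to 0.0473% and fibroblast to 0.466%. The first 20 entries held 10.2%; leaving out ribosomal RNA was chosen after seeing the data and did not move this by 1 SD. The number of wide entries, 719, depended on the setting. It was 3708 of 15169 with no filter, 266 of 10088 at a mean of 100 counts or more, and 321 in rats 5 to 8 alone. From the SD of log2(FPKM + 0.1) or log2(FPKM + 1), put on the natural log scale, it was 1267 or 453. Leaving out 1 rat gave 413 to 761, the lowest without rat 3. Neighbouring pairs that passed numbered 26 to 31 without 1 rat, 26 or 27 of them shared with the 31 reported, and 0 pairs that passed changed order. Relations that passed numbered 0, and 0 to 1 without 1 rat: the fibroblast and pericyte relation passed without rat 8 (r = 0.93, adjusted p = 0.0181, exact permutation test). Leaving out mitochondrially encoded genes was not run, since those genes were not analysed here. No paired analysis was possible because no groups were compared. Transcripts under about 10 counts a rat cannot be ranked at this depth.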

Other observations

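All 30 genes of the cholesterol and fatty acid synthesis list had a mean of 1 FPKM or more, together 0.748 ± 0.0371% of the summed FPKM (n = 8 rats) and 1.25% of the counts. Scd2, a fatty acid desaturase, ranged from 809 to 1004 FPKM with a median of 913, and Hmgcs1, an early enzyme of cholesterol synthesis, from 366 to 459 with a median of 392. Cytosolic ribosomal protein genes held 4.44 ± 0.241% and nuclear-encoded respiratory chain genes 2.87 ± 0.141% of the FPKM (1.46% and 1.27% of the counts), led by Rpl21 (630 ± 47.6 FPKM) and by Atp5b (825 ± 41.6), a subunit of ATP synthase. Rat 3 held the highest value in 64 of 80 ribosomal protein genes, beside 2605 of 12029 entries in all.

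Genes induced by activity and by glucocorticoids were low to moderate. Jun, a transcription factor subunit, led the immediate early list at 26.2 to 39.6 FPKM with a median of 30.2, and Tsc22d3, a glucocorticoid-induced regulator, had 140 to 201 FPKM with a median of 163. Dividing cells left a small signal: the cell cycle list held 0.0132 ± 0.000863% of the FPKM, with the replication clamp Pcna, also used in repair, at 33.2 ± 3.49 and the mitotic cyclin Ccnb1 at 1.71 ± 0.264.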
